A study of Mus musculus with 8 samples.

Results

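The genes described here are those of pre-mRNA splicing whose array symbols start with Hnrn, Sfrs or Srsf followed by a digit, Sf3a, Sf3b or Snrp. The array held 65 such probes of 25697, for 44 of 18138 gene symbols. The rule reads symbols and uses no measured value, although this gene family was picked with earlier results of these data known. They were measured in primary mouse aortic smooth muscle cells, grown out of pieces of several aortas and kept in charcoal-treated serum before use. The cells were transfected with 5 nM of a scrambled control oligonucleotide (3 samples) or of a moR-21 mimetic (3 samples), and total RNA was taken at 48 h. Both groups received the same transfection reagent. A pair of arrays, averaged here, was run for control sample 1 and likewise for moR-21 sample 3, so that 8 Illumina mouse BeadChip arrays gave 6 samples. The labels do not say whether the samples of a group came from separate cultures, so the p-values measure the spread between these samples, which may be technical.

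Splicing removes introns from the primary transcript. It is carried out by small nuclear ribonucleoproteins (snRNPs), particles in which a short nuclear RNA carries a ring of Sm proteins and particle-specific subunits. The SF3a and SF3b proteins belong to the U2 snRNP and help it to hold the branch point. SR proteins (symbols Sfrs on this array, now Srsf) bind exonic enhancers and recruit the snRNPs, whereas hnRNPs coat the nascent transcript and often oppose exon inclusion. In smooth muscle cells, the balance of these factors sets isoforms of several contractile proteins.

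moR-21 is a small RNA cut from the miR-21 precursor just upstream of miR-21 itself. Both sequences are shown because the treatment was a mimetic of the first, and its seed differs from that of miR-21. They are from RefSeq (GRCm38.p6, minus strand), with capitals marking positions 2 to 8, the seed. The hairpin given there starts at position 2 of moR-21, so its first base is not shown. The hairpin of Mir21a runs over 92 bases, chr11:86584067-86584158.
5′ stretch of the Mir21a hairpin (chr11:86584142-86584158): UGUACCAccuugucgga
miR-21a-5p (chr11:86584120-86584141): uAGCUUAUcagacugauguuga

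A probe was tested when any array detected it (with a detection p-value under 0.01), and 46 of the 65 probes passed, for 34 of the 44 genes. Of these 46 probes, 41 were detected on all 8 arrays, 3 only on moR-21 arrays (the dimmer probe of Hnrnpa2b1, Sfrs12 and Sf3b4) and 1 only on a control array (Sf3a2). The remaining probe, of Hnrnpul1, was detected on 4 moR-21 arrays and 1 control array. Its intensities were at most 126, where a difference was hardly detectable. The 10 genes without a tested probe were Hnrnpd, Hnrnph2, Hnrnpr, Sfrs10, Sfrs12ip1, Sfrs15, Sfrs8, Sf3b1, Snrpe and Snrpb2, whose intensities reached at most 115 on any array, against array medians of 102 to 109. For these genes a difference was not detectable at this signal. Where a gene had several tested probes, its brightest is given unless stated. Signals are log2 intensities after quantile normalization, and a difference is moR-21 minus control on that scale. The signal of a probe depends on its own hybridization, so that signals of different genes do not rank their transcript levels.

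Most of the splicing genes differed little between the groups, and 6 of the 9 probes that passed the test below were for Sm proteins. Over the 46 probes the median difference was 0.01, against 0.00 over all 11651 tested probes, with 26 higher and 20 lower. The median absolute difference was 0.0803, against 0.0906 over all tested probes, while the median SD between samples of a group was 0.0640, against 0.0594. The median log2 signal of these probes was 9.37, against 7.68 over all tested probes. None of the shares given here was matched for signal. At the cutoffs of the study (over 1.3-fold, adjusted p under 0.002), 1 probe was called, for Snrpb. That is 2.17% of the probes of these genes, whereas 6.96% of all tested probes were called (3.12% higher and 3.85% lower). At an adjusted p under 0.05 in limma, 9 probes (19.6%) passed, 8 higher and 1 lower, where the share over all tested probes was 33.8% (17.9% higher, with 1860 of 3943 lower). The samples of the 2 groups did not overlap for 14 probes (30.4%), 13 of them higher with moR-21, and 45.0% of all tested probes did not overlap (23.7% higher, 21.2% lower). Taken over both directions, all 3 shares lay below those of the array as a whole. By direction, 17.4% were higher at an adjusted p under 0.05, close to 17.9%, and 2.17% lower, against 1860 of 11651. Without overlap, 13 of 46 were higher, against 2766 of 11651, and 1 was lower, against 2474. At these thresholds the shares fell short mainly in falls, not in rises, and the difference between shares was not tested. In cultures like these, fewer cells of a type and less RNA per cell cannot be told apart. Counted by gene, 6 of 34 were higher at an adjusted p under 0.05 (Snrpb, Snrpd1, Snrpd3, Snrpg, Sfrs4 and Hnrnpc) and none was lower at its brightest probe, where the median difference was 0.03 and the range −0.15 to 0.49. Over the 46 probes, 13 higher and 3 lower had an unadjusted p under 0.05, a threshold that 42.2% of all tested probes passed (22.4% higher, 19.8% lower).

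**Figure D1:**
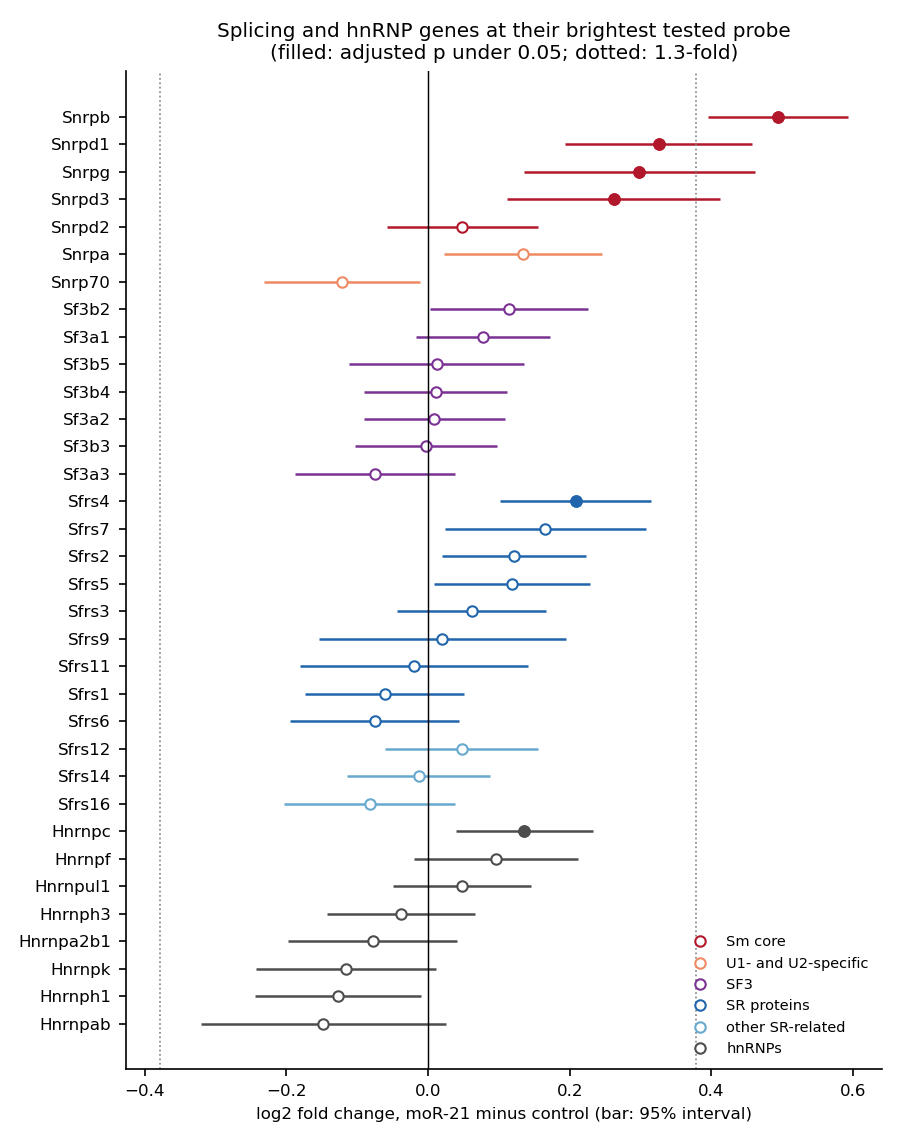
Log2 difference (moR-21 minus control, horizontal axis) of the 34 tested genes at their brightest probe, grouped by role and ordered by value within each, with limma 95% intervals as bars and filled points at an adjusted p under 0.05. Of the 6 filled points, 4 are Sm core genes, and Snrpb is the only gene past the dotted 1.3-fold lines.

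Sm proteins form the heptameric ring around the RNAs of the major snRNPs. The array held 6 Sm genes on 8 probes, of which 5 genes and 7 probes were tested. All 7 probes had positive differences, as did 6024 of all 11651 tested probes. At an adjusted p under 0.05, 6 of the 7 passed, where 33.8% of all tested probes did (17.9% higher). Snrpb and Snrpd1 each account for a brighter and a dimmer probe among these, and by gene 4 of 5 passed. The median difference over the 7 probes was 0.30. Snrpb encodes SmB and its longer splice form SmB′. Its brighter probe read 10.20, 10.17 and 10.24 in control samples 1 to 3 and 10.71, 10.72 and 10.65 in moR-21 samples 1 to 3. The groups lay far apart, with less than 0.1 between the samples of either. Before averaging, the arrays of control 1 read 10.13 and 10.27 and those of moR-21 3 read 10.69 and 10.62. The difference was 0.49 (SE 0.0459, limma adjusted p = 1.94e-06), a 1.41-fold rise. The dimmer probe of Snrpb read 8.59, 8.67 and 8.68 in controls and 8.94, 9.07 and 8.95 with moR-21, a difference of 0.34 (adjusted p = 1.54e-04). Both probes thus separated the groups. No probe on the array carried the symbol Snrpn, a close paralog of Snrpb, and cross-hybridization was not tested.

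Snrpd1 encodes SmD1, which the arginine methylation of its tail prepares for ring assembly. Its brighter probe read 10.08, 10.05 and 10.26 in controls and 10.36, 10.52 and 10.47 with moR-21. The groups did not overlap, although control 3 and moR-21 1 were only about 0.1 apart. The difference was 0.33 (SE 0.0613, adjusted p = 9.06e-04), below the fold cutoff. The dimmer probe gave 0.25 (adjusted p = 0.0128), with moR-21 2 at 10.26 well above moR-21 1 at 9.93 and moR-21 3 at 10.01.

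Snrpg encodes the small ring subunit SmG, which joins through SmE and SmF. It read 10.17, 10.14 and 10.29 in controls and 10.35, 10.70 and 10.44 with moR-21, a difference of 0.30 (SE 0.0756, adjusted p = 0.00720). Snrpd3 encodes SmD3, the partner of SmB. It read 9.41, 9.27 and 9.48 in controls and 9.57, 9.81 and 9.57 with moR-21, a difference of 0.26 (SE 0.0700, adjusted p = 0.00982). For both genes moR-21 2 was far the highest sample and the other moR-21 samples stood just above control 3, the highest control. Snrpd2 encodes SmD2, the partner of SmD1, and was the exception. It read 11.08, 11.09 and 11.19 in controls and 11.12, 11.18 and 11.21 with moR-21, so that the groups overlapped. Its difference was 0.05 (SE 0.0496, adjusted p = 0.508, 95% interval −0.06 to 0.15). The probe of Snrpe (SmE) was not detected.

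The median over the 7 Sm probes, taken in each sample relative to the control mean, was −0.03, −0.03 and 0.07 in controls 1 to 3 and 0.18, 0.42 and 0.24 in moR-21 samples 1 to 3. All moR-21 samples were above all controls, and moR-21 2 stood highest. Without moR-21 2 the median difference fell to 0.20, and 6 Sm probes passed at an adjusted p under 0.05. Without control 3 the difference of Snrpd1 was 0.39 and it joined Snrpb past the cutoffs of the study, which made 2 probes called. Snrpd3 missed 0.05 after nec background correction (adjusted p = 0.0540) and without control 2 (0.0561).

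**Figure D2:**
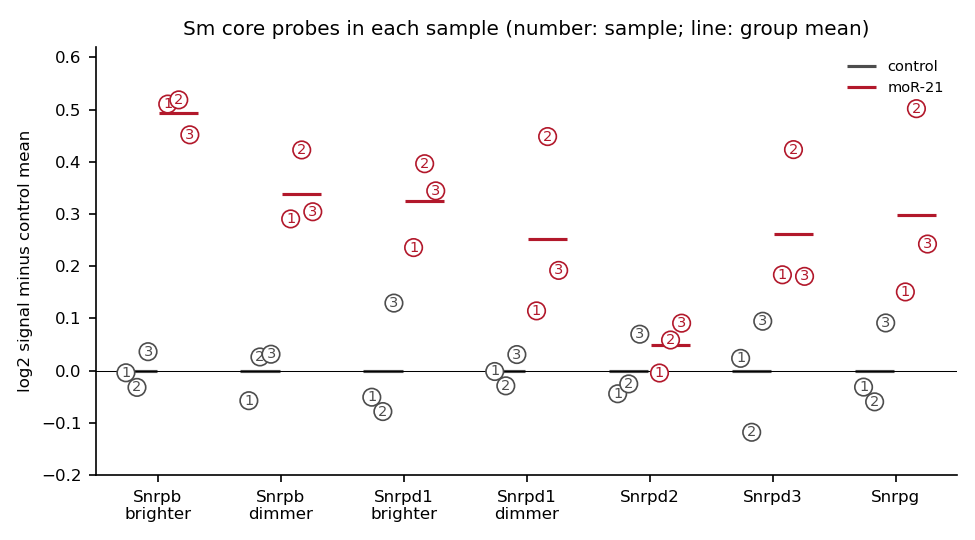
Log2 signal of the 7 tested Sm core probes in each sample, minus the control mean of the probe (vertical axis), with the sample number in each circle and lines at the group means (control grey, moR-21 red). For all probes except Snrpd2 the circles of the groups do not overlap, and moR-21 2 is the highest sample except for Snrpd2, where moR-21 3 is.

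The subunits particular to the U1 snRNP, which recognizes the 5′ splice site, did not pass the test. Snrpa, which binds a stem loop of the U1 RNA, read 9.94, 10.02 and 9.89 in controls and 10.01, 10.12 and 10.13 with moR-21, a difference of 0.13 (adjusted p = 0.0615), and its dimmer probe gave 0.01. Snrp70, the U1 subunit on which SR proteins dock, read 8.04, 8.07 and 8.10 in controls and 7.90, 8.05 and 7.90 with moR-21, a difference of −0.12 (adjusted p = 0.0840). The groups overlapped for both genes. The unadjusted p was under 0.05 for 1 of the 3 probes in each direction (42.2% of all tested probes), and Snrpb2, of the U2 snRNP, had no detected probe.

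For SF3, 7 of 8 genes were tested and 0 passed at an adjusted p under 0.05 in limma, with 1 of 7 probes at an unadjusted p under 0.05, against 42.2% of all tested probes. Their differences ranged from −0.08 to 0.11, and the 95% intervals together spanned −0.19 to 0.23. Among them, Sf3a2 and Sf3b4 were each detected on 1 array only, with intensities of at most 120 and 116. At that signal, close to that of the genes not tested, a difference was hardly detectable. Sf3b2, an RNA-contacting subunit and the brightest of the class, read 11.39, 11.48 and 11.47 in controls and 11.64, 11.48 and 11.57 with moR-21. Its groups touched without overlapping, and the difference was 0.11 (SE 0.0521, adjusted p = 0.111). Sf3b1, the largest SF3b subunit, had no detected probe.

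SR proteins were represented by 9 genes on 14 probes, all tested, and 1 probe passed at an adjusted p under 0.05. This was Sfrs4 (SRp75, a large SR protein with a pair of RNA recognition motifs), which read 8.57, 8.57 and 8.59 in controls and 8.86, 8.71 and 8.79 with moR-21. The controls were within 0.1 of each other and below all moR-21 samples. Before averaging, the arrays of control 1 read 8.51 and 8.64 and those of moR-21 3 read 8.81 and 8.77. The difference was 0.21 (SE 0.0494, adjusted p = 0.00468). Sfrs1 (SF2/ASF, the founding SR protein) was the brightest of the class and read 11.19, 11.04 and 11.10 in controls and 11.11, 11.00 and 11.04 with moR-21. The groups overlapped, with a difference of −0.06 (SE 0.0522, adjusted p = 0.416) and 0.04 at its dimmer probe.

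The other 7 SR genes had differences from −0.08 (Sfrs6) to 0.17 (Sfrs7, adjusted p = 0.0702), and the 95% intervals of the class spanned −0.19 to 0.31. Several had probes of opposite sign, none past the test. Sfrs5 (SRp40) gave 0.12 (adjusted p = 0.0916) at the probe annotated to transcript variant 2 and −0.08 (adjusted p = 0.228) at that annotated to variant 1. Sfrs2 (SC35, a marker of nuclear speckles) gave 0.12 (adjusted p = 0.0629) at its brightest probe and 0.04 and −0.03 at the others. Sfrs3 (SRp20) gave 0.06 and −0.09. For Sfrs9 (SRp30c) moR-21 2 read 10.48 while the other moR-21 samples read 10.14 and 10.07, and the controls lay between 10.19 and 10.22.

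Of 7 further genes that carry an Sfrs symbol without being classical SR proteins, 3 were tested and 0 passed at an adjusted or unadjusted p under 0.05 in limma. Sfrs14 (now Sugp2), the brightest of them, read 9.24, 9.21 and 9.19 in controls and 9.25, 9.15 and 9.21 with moR-21, a difference of −0.01 (adjusted p = 0.867). The others were Sfrs16 (now Clasrp) at −0.08 and Sfrs12 (now Srek1) at 0.05. Sfrs12 was detected on moR-21 arrays only, with intensities of at most 118, where a difference was hardly detectable.

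Among the hnRNPs, 9 of 12 tested probes had a negative difference, 4 of them of Hnrnph1, and the median was −0.06. By gene, 5 of 8 were negative at the brightest probe, and over the array 5627 of 11651 probes were. They covered 8 of 11 genes, with 95% intervals from −0.32 to 0.23. Hnrnpc, which packages nascent transcripts and binds uridine tracts, was the gene that passed, and it was higher. It read 12.31, 12.30 and 12.30 in controls and 12.42, 12.41 and 12.48 with moR-21. The 3 controls were nearly equal (SD 0.00335), and all moR-21 samples stood above them. Quantile normalization gives probes of the same rank the same value on each array. Control 2 and an array of control 1 shared 12.2986, and both arrays of moR-21 3 shared 12.4838, so the SD is of rank-based values. The difference was 0.14 (SE 0.0449, limma adjusted p = 0.0306). This call did not hold under median scaling (adjusted p = 0.0760), normexp (0.0807) or nec (0.162) background correction, nor without any of control 1 (0.0784), control 2 (0.0729), control 3 (0.0662) or moR-21 3 (0.117), with the difference between 0.11 and 0.14 in each.

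Hnrnph1, which binds G-rich tracts next to splice sites, had 4 tested probes, all with negative differences of −0.13, −0.04, −0.10 and −0.14 from the brightest to the dimmest. The dimmest was the 1 probe of all these genes lower at an adjusted p under 0.05. It read 7.43, 7.43 and 7.51 in controls and 7.34, 7.28 and 7.33 with moR-21, without overlap (SE 0.0463, adjusted p = 0.0278). Single arrays did overlap before averaging, with control 1 at 7.51 and 7.35 and moR-21 3 at 7.23 and 7.43. No probe of these genes was lower at that threshold under median scaling, with the second array of each repeated sample alone, or without control 1, control 3 or moR-21 3. The brightest probe read 9.92, 9.82 and 9.84 in controls and 9.84, 9.66 and 9.70 with moR-21 (adjusted p = 0.0907). A further probe that carries the older symbol Hnrph1 was lower as well, at −0.19 (adjusted p = 0.00657).

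Hnrnpab, with the most negative difference of the hnRNPs, read 11.98, 11.86 and 12.09 in controls and 12.04, 11.67 and 11.79 with moR-21, a difference of −0.15 (SE 0.0807, adjusted p = 0.185). moR-21 1 stood among the controls. The same sample stood above the other moR-21 samples for Hnrnpk, a protein of C-rich tracts, which read 10.07, 9.83 and 9.86 in moR-21 samples and 10.03, 10.05 and 10.03 in controls (difference −0.12, adjusted p = 0.154). Without moR-21 1, Hnrnpab was at −0.25 (adjusted p = 0.0139), Hnrnpk at −0.19 (0.0108) and the brightest probe of Hnrnph1 at −0.18 (0.0217), and 13 probes passed in all. This removal gave the largest falls. Leaving out each sample in turn, the differences reached −0.07 for Hnrnpab, −0.07 for Hnrnpk and −0.09 for Hnrnph1 at the other end. With all samples none of these probes passed. Hnrnpf, a close relative of Hnrnph1, was at 0.10 (adjusted p = 0.195).

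**Figure D3:**
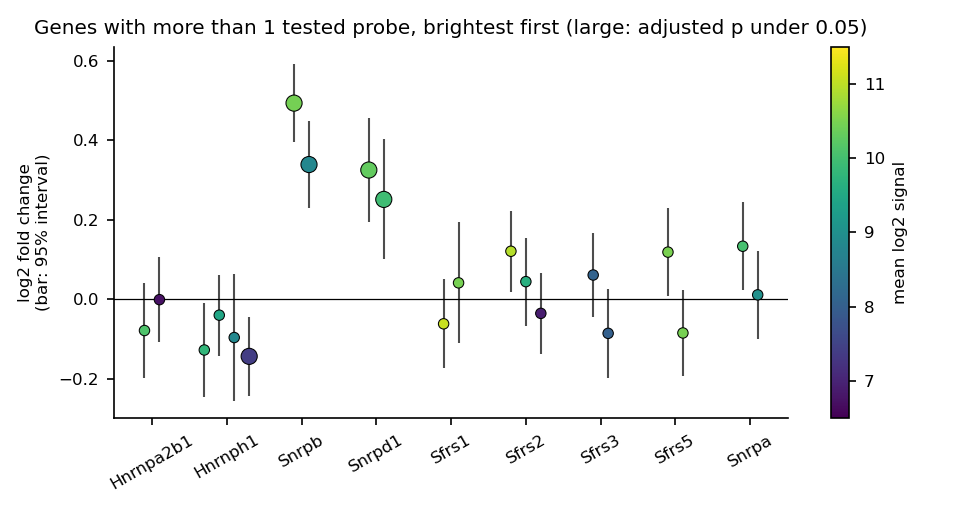
Log2 difference (moR-21 minus control, vertical axis) at each tested probe of the 9 genes with more than 1, brightest probe first, with limma 95% intervals as bars, colour for the mean log2 signal and large points at an adjusted p under 0.05. Both probes of Snrpb and of Snrpd1 are high, all 4 of Hnrnph1 are below 0, and those of Sfrs1, Sfrs2, Sfrs3 and Sfrs5 fall on both sides of 0.

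Other genes of the splicing machinery, listed by function, had 112 genes on the array, of which 96 were tested. At an adjusted p under 0.05, 26 were higher (27.1%) and 19 lower (19.8%), which is 46.9% in either direction. Of all tested probes 33.8% passed in either direction and 17.9% were higher, with 1860 of 11651 lower. The genes were read at their brightest probe and the array over all its tested probes, and the difference between shares was not tested. The median difference was 0.01, and 5 genes (5.21%, against 6.96% of all tested probes) were called at the cutoffs of the study. Among these 5, 3 encode LSm proteins, relatives of the Sm proteins that ring the U6 RNA. Lsm8, which defines the nuclear LSm ring, read 9.46, 9.49 and 9.46 in controls and 8.32, 8.37 and 8.32 with moR-21, a difference of −1.14 (SE 0.0446, adjusted p = 4.26e-10). Lsm6 was at −0.39 (adjusted p = 2.54e-05), although its dimmer probe gave −0.04 (adjusted p = 0.573), and it fell short of 1.3-fold with the second of the repeated arrays alone (−0.38), with all arrays tied by duplicateCorrelation (−0.37) and without control 2 (−0.36) or moR-21 2 (−0.37). Lsm3 was at 0.56 (adjusted p = 4.34e-06). All 6 tested LSm genes passed at 0.05, with Lsm2 (0.26, its dimmer probe at −0.10) and Lsm5 (0.26) higher and Lsm4 (−0.16) lower, so that this ring was split 3 against 3 where 4 of the 5 Sm genes were higher and none lower.

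Isy1, of the Prp19 complex that activates the spliceosome, was called at −0.38 (adjusted p = 1.97e-04), and Pcbp2, a poly(C)-binding hnRNP, at 0.41 (adjusted p = 2.03e-04). Both calls were lost with nec background correction (adjusted p = 0.00570 and 0.00704). Isy1 also fell short of 1.3-fold with the second of the repeated arrays alone (−0.36), under duplicateCorrelation (−0.38) and without control 1 (−0.36), control 2 (−0.35) or moR-21 2 (−0.34), and Pcbp2 without control 3 (0.34) or moR-21 3 (0.38). Among 11 tested genes of Sm ring assembly, 2 were higher and 3 lower. Smn1, the survival motor neuron protein that loads the ring, was at −0.29 (adjusted p = 5.97e-04), Wdr77, a partner of the methylase Prmt5, at −0.29, and Clns1a (pICln, a chaperone of Sm proteins) at −0.14, while Gemin7 was at 0.27 and Gemin4 at 0.17. Of 6 tested genes of SR protein phosphorylation and import, the kinases Srpk1 (0.37, adjusted p = 2.68e-05) and Clk2 (0.24) were higher and Clk1 (−0.26) was lower. The 17 hnRNPs that carry other symbols divided into 5 higher, 5 lower and 7 that did not pass. Ptbp1, a repressor of many alternative exons, was among the lower at −0.22 (adjusted p = 0.00397). Beside the counts of these lists, 33.8% of all tested probes passed at an adjusted p under 0.05 (17.9% higher). The lists were not tested against that share.

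**Figure D4:**
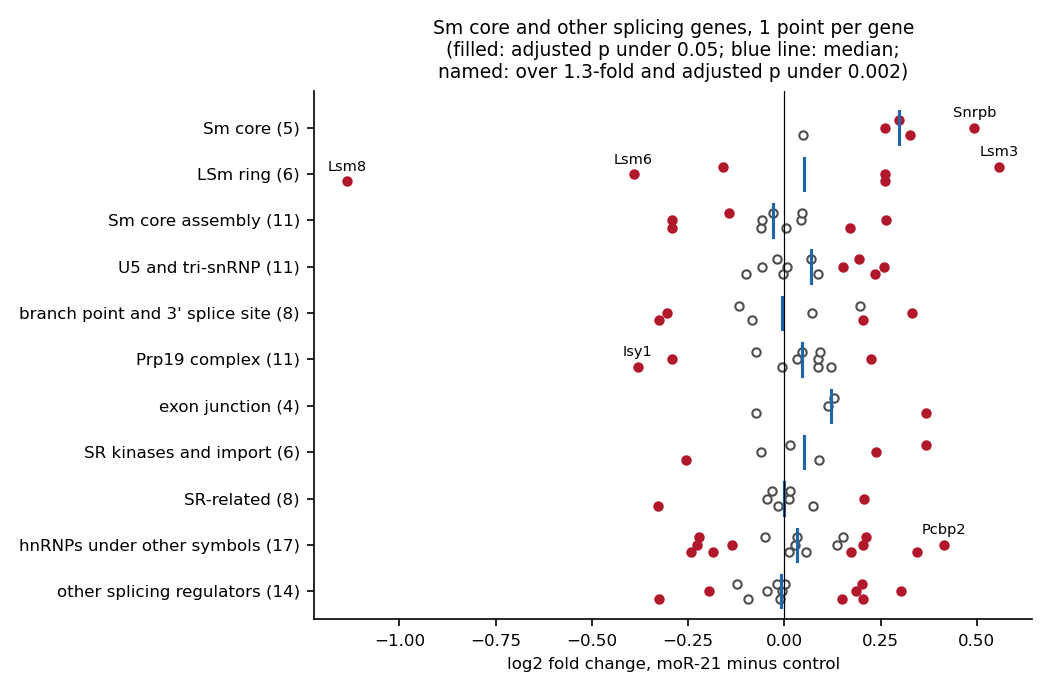
Log2 difference (moR-21 minus control, horizontal axis) of each tested gene at its brightest probe, in the Sm core and 10 other groups of splicing genes (number of genes in brackets), filled at an adjusted p under 0.05, with the median as a blue line. The Sm core median is at 0.30 with no gene below 0, whereas the LSm ring runs from Lsm8 at −1.14 to Lsm3 at 0.56 around a median of 0.05.

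A sequence feature that the symbols did not use was looked for in the promoters of RefSeq (250 bases before to 50 after the start, both strands), where 39 of the genes had a window. The ETS motif CCGGAAG was in 17 of them (43.6%), against 12.9% of the windows of 17492 protein-coding genes. The GC box GGGCGG was in 71.8% against 49.2%, whereas CCAAT was in 43.6% against 42.3%, the TATA box TATAAA in 15.4% against 14.8% and the E-box CACGTG in 12.8% against 8.9%. Among Sm genes CCGGAAG was in the windows of Snrpg and Snrpe and not in those of Snrpd2 and Snrpd3, and Snrpb and Snrpd1 had no window. These matches are letters in a window and were not tested for any role.

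Markers were read for the cells themselves. Acta2, smooth muscle actin, was called higher with moR-21 at 0.40, Des was lower at −0.38 and Smtn was detected on all arrays, whereas Myh11, Cnn1, Myocd and Synpo2 were not detected and Tagln was detected on moR-21 arrays only. Although a field of the labels calls the cells AoECs, 7 of 8 endothelial markers, Pecam1 and Cdh5 included, were not detected. The other, Vwf, was detected on all arrays, at a low signal of 117.1 to 120.2 in controls and 118.5 to 126.5 with moR-21. The summed signal of the 5 tested smooth muscle markers lay between 9953 and 10335 in controls and between 12700 and 13552 with moR-21, and Acta2 gave 91.9% to 94.4% of it. Of the 5, 2 were higher and 1 lower at an adjusted p under 0.05, with a median difference of 0.05. That of the 4 fibroblast markers, all lower at an adjusted p under 0.05, lay between 16388 and 17197 in controls and between 13610 and 14607 with moR-21. Of the macrophage markers Ptprc, Emr1, Itgam and Cd68 were not detected, and 3 of 7 were tested, with summed signals of 1622 to 1688 in controls and 1465 to 1498 with moR-21. Among these, Lyz2 was called higher at 0.48, Cd14 was lower at −0.27 and Csf1r was at −0.01. Of the mesothelial markers Upk3b was at −1.24, and the summed signal of the 2 tested was 771 to 780 in controls and 402 to 416 with moR-21. The part of these differences in the splicing genes was not tested.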

How the data were processed

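Probe intensities and detection p-values of 8 arrays were deposited by the authors as 1 table, without background correction or normalization. The submitters' processing notes name lumi. The study's methods name both the MouseRef-8 and the MouseWG-6 BeadChip. Intensities were quantile-normalized over the 8 arrays and taken to log2, the arrays of a sample were averaged, and limma 3.58.1 (lmFit and eBayes, R 4.3.3) compared 3 moR-21 with 3 control samples. P-values were adjusted by Benjamini-Hochberg over the 11651 probes that any array detected (detection p-value under 0.01). Precision is limited by the number of samples, 3 in each group. Old symbols were matched to RefSeq: 27 were current, 16 matched a synonym and 1 (Sfrs10) did not match. Named were the brightest gene of each class and, among genes with an adjusted p under 0.05, the 3 largest changes in each direction, and every other splicing gene called; further genes were named after their values were seen. The members and lists were chosen with earlier results of these data known, and the Sm summaries under each alternative were added after the values were seen. The fit was tested on simulated data. Same-numbered samples deviated together with correlations of 0.187, 0.0441 and 0.0597 over all tested probes, so the numbers were not taken as pairs. Alternatives changed the normalization, background correction, filter, use of repeated arrays, eBayes settings, block and cutoffs, and left out each sample. Figures used Python 3.11.15 and matplotlib 3.10.9.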

Additional observations from a re-analysis of the deposited data

How the results depend on the processing

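Settings tried for the counts, the medians and each gene reversed no called difference. At over 1.5-fold 0 probes were called, in place of 1. Leaving out each sample in turn gave 1 to 2 probes called, 7 to 13 at an adjusted p under 0.05 (9 with all samples), a median difference of 0.01 to 0.04, 5 to 6 Sm probes at an adjusted p under 0.05 and an Sm median of 0.20 to 0.36. With nec background correction, 6 probes and 4 Sm probes passed at 0.05. With the replicate number as a replicate block, 12 probes passed (10 higher, 2 lower), 1 was called and the median difference stayed at 0.01. Controls 1 and 2 correlated best with the moR-21 sample of their own number (0.187 and 0.0441). Control 3 correlated best with moR-21 2 (0.0693, against 0.0597 with moR-21 3). The Snrpb difference lay between 0.46 and 0.53 and was called in all settings except the 1.5-fold cutoff. Over genes, 18 values newly passed 0.05 under a setting, 9 no longer passed and 644 kept their side. Repeat arrays of a sample differed by a median of 0.0666 (control 1) and 0.0721 (moR-21 3) over the tested probes of these genes, about the size of many of the differences above, whose 95% intervals include 0.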
